A study of Rattus norvegicus with 6 samples.

Results

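The mitochondrial genome contributed 37 genes to the count table of rat intervertebral disc RNA, and their transcripts are described here across all 6 libraries. They were taken by position alone, as every row that the table places on the mitochondrial chromosome, whatever its measured value. Earlier results of these data were known when this part was chosen. Of 30562 rows, these 37 comprised 13 protein-coding genes, 2 rRNA genes and 22 tRNA genes. The question was whether this small genome was transcribed to a different extent, or in different proportions, in discs injected with the siRNA vector. All animals were wild-type male Sprague-Dawley rats of 12 weeks, in which a tail disc had been punctured with a needle, and no unpunctured disc was among the libraries. In the control group (3 libraries) the paper describes 10 μL of PBS injected into the disc, whereas the sample records speak of an untreated control. The other 3 libraries are labelled AF-PTK@LEV@SPP1, a vesicle of liposomes fused with bacterial extracellular vesicles. It is aimed at the annulus fibrosus (AF), the outer ring of the disc, by a peptide joined through a bond that reactive oxygen species cut, and its cargo is an siRNA against Spp1 (10 μL at 1 mg/kg siRNA). The paper's materials describe that siRNA as directed at mouse SPP1, and its match to the rat transcript was not tested here. Injections began 24 h after surgery and the paper's treatment ran over 8 weeks, while the sample records state 14 days.

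The mitochondrial genome is a compact circle in which genes lie end to end with almost no spacer. It is read from both strands as long precursors, and the tRNAs set between the larger genes are cut out to release the mRNAs and rRNAs. Every protein it encodes is a core subunit of the respiratory chain or of ATP synthase, and its rRNAs and tRNAs serve only the ribosomes inside the organelle. The remaining subunits, the polymerase and the factors that stabilise its RNA are encoded in the nucleus. Disc cells live in tissue with little blood supply and are known to rely heavily on glycolysis.

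The libraries ranged from 15560728 to 17942989 counts, so that 3 counts, taken here as the floor, equalled 0.167 to 0.193 CPM, a count relative to the size of its library. Control replicates 2 and 3 were close to a copy of each other. Over 14393 genes their counts varied 1.33 times as much as counting noise, against 51.3 to 107 times in the other pairs within a group, and they are counted as 1 sample in every mean below (control n = 2, AF-PTK@LEV@SPP1 n = 3). Spp1, the siRNA target, was at 8123, 4411 and 4417 normalized CPM in the controls. In the AF-PTK@LEV@SPP1 libraries it was at 8054, 6903 and 8461 and therefore not lower (log2 fold change 0.47, 95% interval -0.28 to 1.21), which are called the labelled libraries throughout because of this. All 10 disc cartilage markers were detected, at a summed 23230 to 49843 normalized CPM, and 13 macrophage markers summed to 741 to 3274, although the sample records mention sorted macrophages. Marker totals of skeletal muscle stood apart in labelled library 2 (11292 against 1081 to 2974 elsewhere), and those of red cells in labelled libraries 2 and 3 (20642 and 14133 against 2397 to 3278 elsewhere). The 9 neutrophil markers stood apart in the same pair of libraries, at 2868 and 3953 against 174 to 1125 elsewhere.

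The share of mitochondrial transcripts in the RNA overlapped between the groups. They took 8.54%, 7.20% and 7.18% of all counts in control replicates 1, 2 and 3, and 6.30%, 7.13% and 8.74% in labelled libraries 1, 2 and 3. The lowest and the highest share both belonged to labelled libraries, and labelled library 2, the highest in muscle markers, lay between them. The means were 7.86% ± 0.952 (SD, n = 2) in the controls and 7.39% ± 1.24 (SD, n = 3) in the labelled libraries, a difference of -0.47 percentage points that lies within either SD. It was 0.20 points without control replicate 1, 0.072 without labelled library 1 and -1.15 without labelled library 3. Exact (Clopper-Pearson) binomial intervals at 95% were narrow, for example 6.29% to 6.31% in labelled library 1, so counting error was not the limit, and they cover that error only. Among protein-coding counts alone the mitochondrial share was 8.42%, 7.04% and 7.03% in the controls and 6.10%, 6.95% and 8.55% in the labelled libraries. In bulk RNA, fewer cells of a type, fewer mitochondria per cell and less RNA per mitochondrion cannot be told apart.

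**Figure D1:**
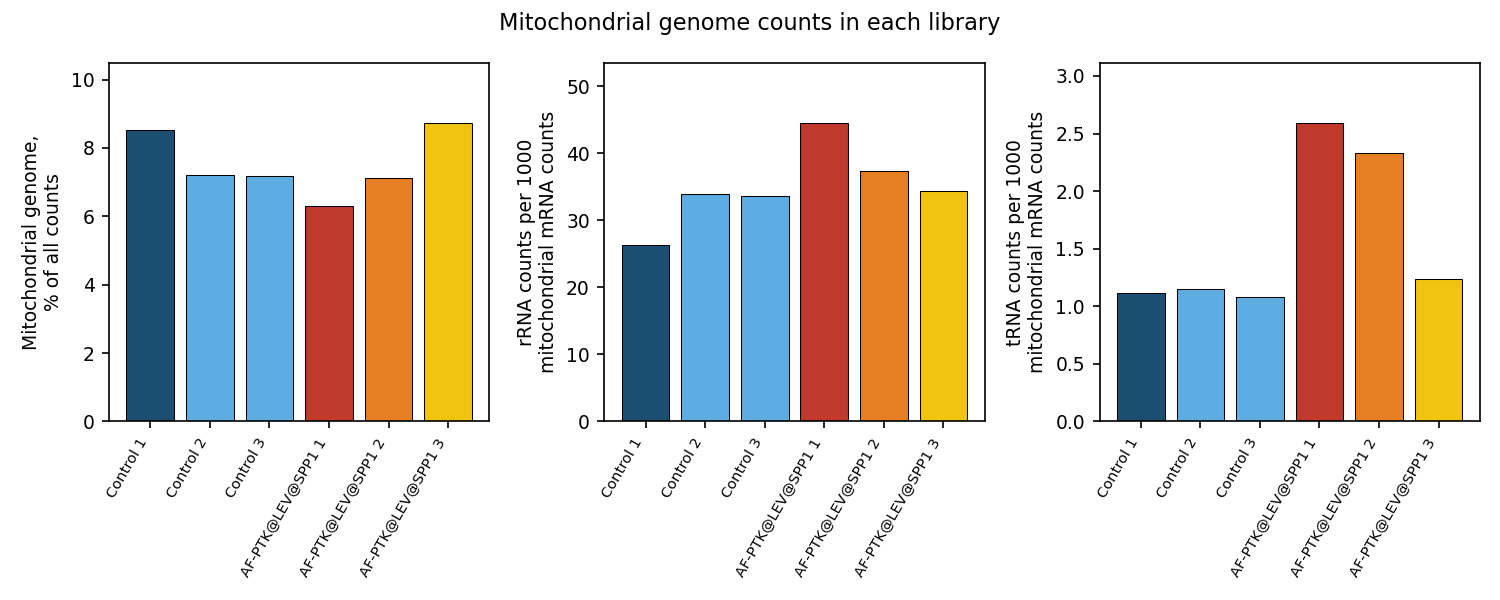
Bars give, for each library, the percentage of all counts on the mitochondrial genome, the rRNA counts per 1000 mitochondrial mRNA counts and the tRNA counts per 1000 mitochondrial mRNA counts. The share of all counts overlaps between the groups, whereas labelled libraries 1 and 2 stand apart in tRNA counts at 2.59 and 2.33 per 1000.

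Within the mitochondrial counts, the mRNAs dominated. They took 95.5% to 97.3% of these counts, the rRNAs 2.56% to 4.25% and the tRNAs 0.105% to 0.248%. The sample records state both rRNA depletion and poly(A) enrichment, so the class proportions reflect what the library kit retained as well as what the cells held. Mt-co1, the catalytic core subunit of cytochrome c oxidase, was between the second and the fifth most counted gene of the whole table in each library. From 9 to 11 of the 13 mRNAs ranked among the 50 most counted genes, depending on the library.

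Set side by side per length, as normalized CPM per kilobase of annotated gene in the controls, the mRNAs fell into tiers. Mt-co1 (14523), Mt-co3 (14159), Mt-co2 (12467) and Mt-atp6 (11693) were highest. Mt-cyb followed at 5818, and then Mt-nd2, Mt-nd3, Mt-nd1, Mt-nd4l and Mt-nd4 stood between 3328 and 3871, close enough that their order differed between the groups. At the low end were Mt-nd5 (1706), Mt-nd6 (1612) and Mt-atp8 (1056). The labelled libraries kept the same tiers, with Mt-co1 at 13297, Mt-cyb at 5062, Mt-nd5 at 1826, Mt-nd6 at 1859 and Mt-atp8 at 968. Mt-atp8 shares 43 of its 204 bases with Mt-atp6 in 1 overlapping message, and Mt-nd4l shares 7 bases with Mt-nd4, so the counting rule for shared reads, which was not stated, can move reads between these neighbours. Mt-nd6 is the only mRNA of the - strand and overlaps Mt-nd5 on the + strand by 23 bases. Whether strand was used in counting was not stated either, so reads of the opposite strand over Mt-nd6 cannot be told apart from its own. Nuclear copies of mitochondrial sequence can also share reads with any member.

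No mitochondrial mRNA passed the test between the groups. All 13 passed the filter on low counts in every library, and edgeR's quasi-likelihood test with Benjamini-Hochberg adjustment over 15042 genes called 0 of 13 at an adjusted p under 0.05, where 18.1% of all tested genes were called. That fit takes the near-identical control libraries as separate samples, and with the pair summed it called 0 of 13 and 3.70% of all tested genes. At an unadjusted p under 0.05 there were also 0, beside 36.6% of all tested genes. DESeq2 and limma-voom, which called 26.5% and 16.8% of all genes, each called 0. For none of the 13 were the groups apart in normalized CPM, a separation that 42.3% of all tested genes showed. Log2 fold changes ran from -0.36 to 0.27 with a median of -0.015, beside 0.046 over all tested genes. The 95% intervals reached from -1.0 at the lowest to 0.77 at the highest, and each included 0.

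**Figure D2:**
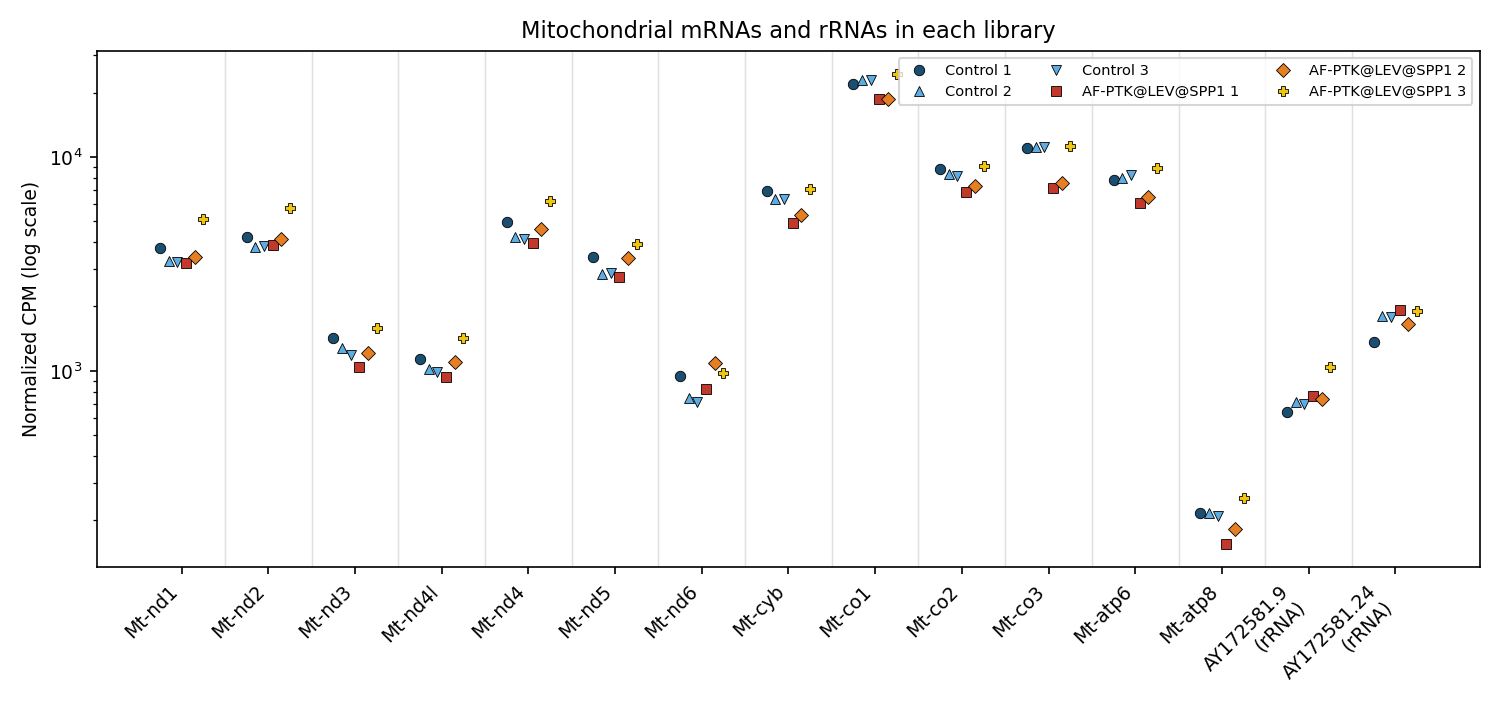
Normalized CPM (log axis) of the 13 mRNAs, grouped by respiratory complex, and the 2 rRNAs, with a point for each of the 6 libraries. Labelled library 3 is the highest point of 12 of the 13 mRNAs and labelled library 1 the lowest of 10.

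The 7 subunits of complex I, NADH dehydrogenase, where electrons enter the chain, overlapped between the groups in level. Mt-nd1 was at 3749, 3253 and 3212 normalized CPM in the controls and at 3199, 3403 and 5117 in the labelled libraries. Mt-nd2 was at 4217, 3805 and 3849 in the controls against 3883, 4135 and 5788. In both genes labelled library 3 alone exceeded every control, and the fitted log2 fold changes were 0.20 ± 0.24 (SE) and 0.22 ± 0.22. Mt-nd3 stood at 1417, 1274 and 1190 normalized CPM in the controls and 1040, 1214 and 1587 in the labelled libraries. Its log2 fold change of -0.015 ± 0.19 was the nearest to 0 and turned positive under upper quartile scaling and under library totals. Mt-nd4l was at 1136, 1023 and 988 against 939, 1097 and 1421 normalized CPM. Its overlapping neighbour Mt-nd4 was at 4974, 4239 and 4156 against 3959, 4598 and 6211. Labelled library 1 was lowest and labelled library 3 highest in both, for log2 fold changes of 0.14 ± 0.19 and 0.14 ± 0.23. The fold changes of Mt-nd1, Mt-nd4 and Mt-nd4l changed sign when labelled library 3 was left out, to -0.045, -0.059 and -0.043, and that of Mt-nd2 came down to 0.019.

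Mt-nd5, the largest of these genes, had 3401, 2833 and 2855 normalized CPM in the controls and 2754, 3370 and 3899 in the labelled libraries. Mt-nd6 departed from the others in its order of libraries, with 942, 749 and 712 in the controls and 824, 1088 and 983 in the labelled libraries. Here labelled library 2 was highest, and control replicate 1 lay inside the labelled range. The log2 fold changes were 0.14 ± 0.20 for Mt-nd5 and 0.27 ± 0.17 for Mt-nd6, and the adjusted p of Mt-nd6, 0.306 with edgeR's quasi-likelihood test, was the smallest among the 13. Without labelled library 3 the value for Mt-nd5 was 0.015, and for Mt-nd6 it was 0.40 without control replicate 1 and 0.17 without labelled library 2. For Mt-nd6, a two-sided exact permutation test on the 5 distinct samples gave p = 0.4, where 0.1 is the smallest p that 3 against 2 samples allow.

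The genes of the other complexes had fold changes below 0, also without passing the test. Mt-cyb, the cytochrome b of complex III, was at 6926, 6372 and 6376 normalized CPM in the controls and at 4900, 5378 and 7078 in the labelled libraries. Mt-co1 was at 21919, 22909 and 23002 in the controls and 18652, 18627 and 24352 in the labelled libraries, and Mt-co2 at 8826, 8312 and 8147 against 6853, 7274 and 9064. In all 3 genes, labelled libraries 1 and 2 were below every control and labelled library 3 above every control, so that the groups overlapped through that library. Mt-co3, the remaining mitochondrial subunit of cytochrome c oxidase (complex IV), was nearly level across the controls at 11024, 11181 and 11173 normalized CPM. It stood at 7124 and 7556 in labelled libraries 1 and 2 and at 11275 in labelled library 3. Its log2 fold change, -0.36 ± 0.26 (adjusted p = 0.355, edgeR's quasi-likelihood test), was the lowest of the 13. Mt-atp6, which forms part of the proton channel of ATP synthase (complex V), was at 7829, 7955 and 8239 against 6110, 6483 and 8834. Its partner Mt-atp8 was at 217, 218 and 210 against 155, 182 and 255. The log2 fold changes were -0.18 ± 0.22 for Mt-cyb, -0.14 ± 0.27 for Mt-co1, -0.12 ± 0.21 for Mt-co2, -0.16 ± 0.23 for Mt-atp6 and -0.12 ± 0.19 for Mt-atp8. All 6 lay further below 0 without labelled library 3, from -0.26 for Mt-co2 to -0.60 for Mt-co3, where the unadjusted p was 0.0471 for Mt-co3 and 0.0305 for Mt-atp8 but no adjusted p was under 0.133 (edgeR's quasi-likelihood test).

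**Figure D3:**
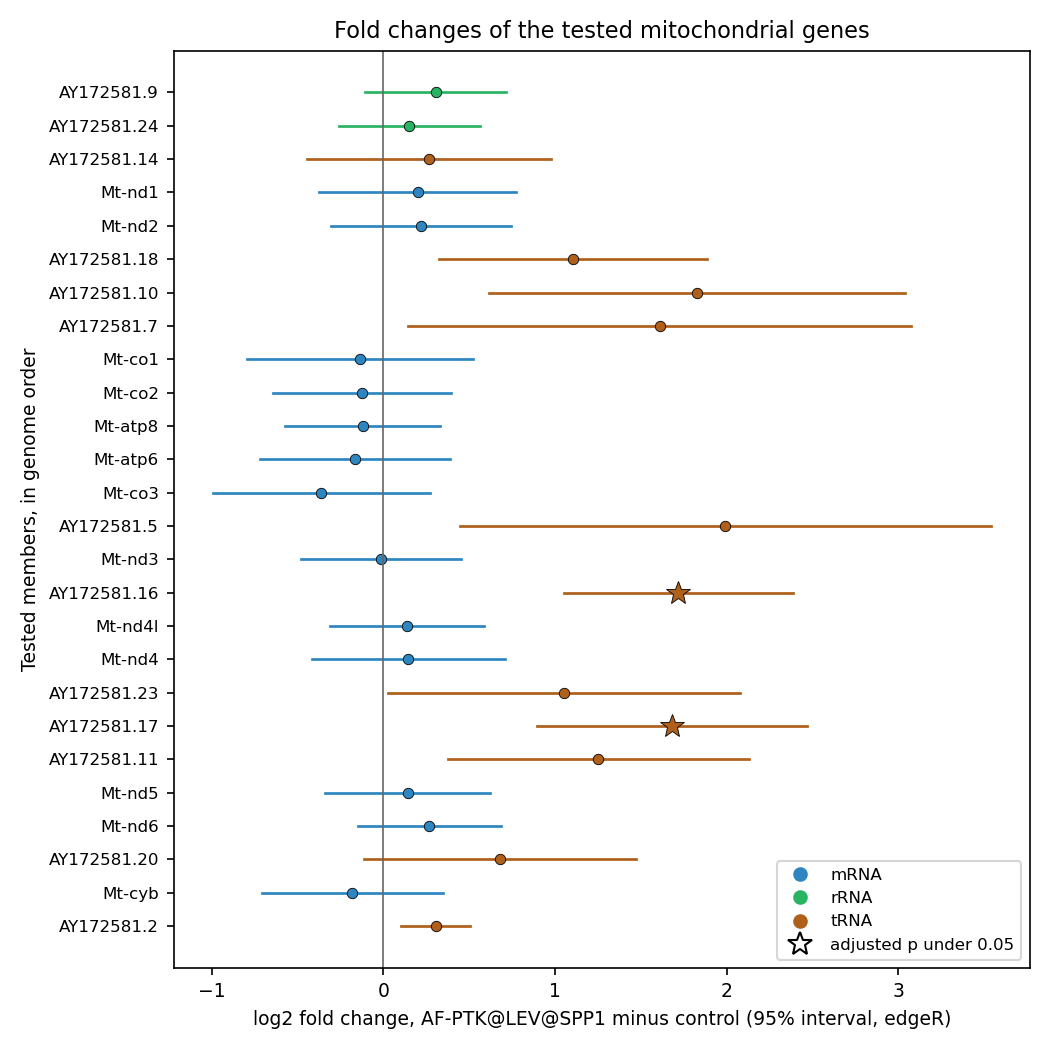
Fitted log2 fold change of each of the 26 tested members, in genome order, with its 95% interval; stars mark an adjusted p under 0.05. All 13 mRNA intervals include 0, and the tRNA estimates all lie above 0, from 0.27 to 1.99. Of these, AY172581.5 (1.99) and AY172581.11 (1.25) had to be higher in the labelled libraries to pass the filter, so their sign carries no weight.

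Differences among the labelled libraries were larger than those between the groups. The highest labelled library was 1.31 to 1.64 times the lowest, with a median of 1.49 over the 13 mRNAs. Control replicate 1 was 0.955 to 1.29 times the mean of the near-identical control pair. Within that pair, the ratio of a gene's share of counts in replicate 3 to that in replicate 2 ran from 0.932 for Mt-nd3 to 1.03 for Mt-atp6. These small ratios still exceeded counting noise, with a variance 16.0 times as large for the 13 mRNAs, whose counts are among the highest of the table.

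The proportions among the 13 mRNAs were also compared, and no test of them passed. Dividing each gene's counts by the sum over the 13 removes whatever the libraries share in mitochondrial content and does not depend on the scaling between libraries. The shares sum to 100%, so that some must be lower where others are higher, which does not hold for the other genes of the table. On this measure the groups were apart for 7 of 13 genes, against 30.5% of all tested genes divided by the same sum. Higher in the labelled libraries were 5 of these, against 20.0% of all tested genes, and lower were 2, against 10.5%. A two-sided exact permutation test of each share on the 5 distinct samples gave p = 0.1 for 6 of the 13 genes, which is the smallest this design allows, so no share could pass 0.05.

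All 5 shares that were higher throughout belong to complex I subunits of the + strand. The share of Mt-nd2 was 5.51%, 5.13% and 5.19% in the controls and 6.43%, 6.42% and 6.74% in the labelled libraries. For Mt-nd1 it was 4.90%, 4.39% and 4.33% against 5.30%, 5.28% and 5.96%. In both, every labelled library was above every control, and the ratio of the group means was 1.22 for Mt-nd2 and 1.19 for Mt-nd1. Mt-nd4l had 1.48%, 1.38% and 1.33% against 1.56%, 1.70% and 1.66%, and Mt-nd5 had 4.44%, 3.82% and 3.85% against 4.56%, 5.23% and 4.54%. Mt-nd4 also separated, at 6.50%, 5.72% and 5.61% against 6.56%, 7.14% and 7.23%, but labelled library 1 exceeded control replicate 1 there by a margin far smaller than the gap between control replicate 1 and the pair. The same held for Mt-nd5, where labelled libraries 1 and 3 were just above control replicate 1. Mt-nd6 and Mt-nd3 overlapped between the groups.

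The shares that were lower throughout were those of Mt-co3 and Mt-cyb. Mt-co3 took 14.4%, 15.1% and 15.1% of the mitochondrial mRNA counts in the controls and 11.8%, 11.7% and 13.1% in the labelled libraries. This was the largest shift in percentage points among the 13, from 14.7% ± 0.484 (SD, n = 2) to 12.2% ± 0.790 (SD, n = 3). Mt-cyb moved from 9.04%, 8.60% and 8.60% to 8.11%, 8.35% and 8.24%, a ratio of 0.934. Mt-co1 (28.6%, 30.9% and 31.0% against 30.9%, 28.9% and 28.4%) and Mt-co2 (11.5%, 11.2% and 11.0% against 11.3%, 11.3% and 10.6%) showed no such separation, so that Mt-co3 alone of the 3 cytochrome c oxidase subunits was apart. Summed by complex, the 7 genes of complex I made 25.9%, 23.2% and 22.9% of the counts in the controls and 27.5%, 29.4% and 29.1% in the labelled libraries. Complex IV made 54.5%, 57.2% and 57.1% against 54.0%, 51.9% and 52.0%. Complex V overlapped between the groups, at 10.5% to 11.4% against 10.3% to 10.6%.

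**Figure D4:**
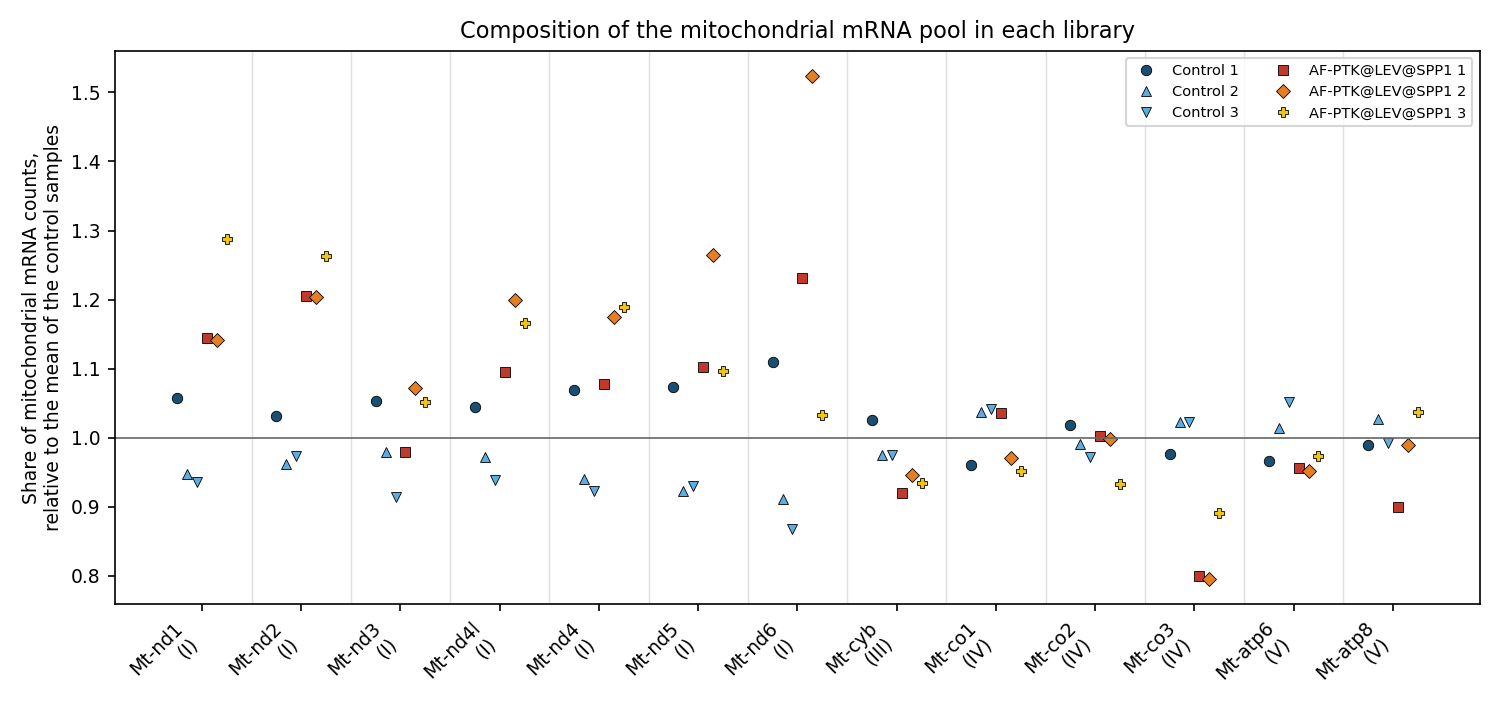
Each gene's share of the 13 mitochondrial mRNAs in each library, divided by the mean share of the 2 distinct control samples (line at 1), with the respiratory complex in brackets. Mt-nd1, Mt-nd2, Mt-nd4l, Mt-nd4 and Mt-nd5 lie higher and Mt-co3 and Mt-cyb lower in all 3 labelled libraries, and control replicate 1 lies nearest to the labelled libraries for Mt-nd1, Mt-nd2, Mt-nd4l, Mt-nd4 and Mt-nd5.

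Control replicate 1 lay between the control pair and the labelled libraries for these complex I shares, and without it 11 of the 13 shares were apart. The number was 10 without labelled library 3 and 7 without any other library. When a fit was scaled to the mitochondrial mRNA counts, an alternative chosen after seeing the data, edgeR's quasi-likelihood test called 0 of 13, where it called 11.1% of all tested genes. Marker totals of several other cell types were also apart between the groups. In the fit without that scaling, whose calls follow, 8.20% of all tested genes were called higher and 9.93% lower. The 9 adipocyte markers, of which Ucp1 was at or near 0 throughout, summed to 300.4 to 1438 normalized CPM in the controls and 2531 to 4257 in the labelled libraries, with 1 of 8 tested, Lep, called higher. The 7 notochord and nucleus pulposus markers matched, of which Noto was at 0, summed to 393 to 834 against 1532 to 4267. They moved in both directions, with 2 of 6 tested, Krt18 and Cd24, called higher and 1, Car12, called lower at -1.16 on the log2 scale. The 7 osteoclast markers, none at 0, summed to 4202 to 6445 against 768 to 1112, with 5 lower by edgeR's quasi-likelihood test. The 13 macrophage markers (2169 to 3274 against 741 to 2058) and the 7 endothelial markers (527 to 632 against 396 to 467) were lower in sum. None of them was at 0, and 3 members were called lower in each list (Cd68, Cd14 and Mrc1, and Pecam1, Cdh5 and Vwf). Single macrophage markers moved in both directions, with at least 1 log2 fold change above 1, and none was called higher. The sums of the annulus and tendon markers (61680 to 91962 against 85455 to 119070) and of the osteoblast and osteocyte markers (1839 to 4699 against 1893 to 3260) overlapped. Of 10 annulus and tendon markers 1 was called lower. Of 10 disc cartilage markers, whose sums also overlapped, 1 was called higher and 1 lower. With the control pair summed, 3.70% of all tested genes were called in either direction and 1.13% higher. No adipocyte, nucleus pulposus or endothelial marker was then called, while 2 macrophage and 4 osteoclast markers were, all lower. In that fit 1 disc cartilage marker was called higher and 1 annulus and tendon marker lower. The part of these cells in the mitochondrial proportions was not tested.

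Neither rRNA passed the test. The shorter rRNA gene of 958 bases, AY172581.9, had 645, 714 and 702 normalized CPM in the controls and 763, 739 and 1046 in the labelled libraries. Every labelled library was above every control, by a narrow margin in 2 of them, and the log2 fold change was 0.31 ± 0.17 with an adjusted p of 0.242 by edgeR's quasi-likelihood test. That fold change was 0.13 without labelled library 3. The longer rRNA gene of 1571 bases, AY172581.24, had 1365, 1801 and 1786 against 1928, 1662 and 1908. Here the groups overlapped and control replicate 1 alone was low (log2 fold change 0.15 ± 0.17, or 0.027 without that library). Relative to mRNA, there were 26.3, 33.9 and 33.6 rRNA counts per 1000 mitochondrial mRNA counts in the controls and 44.5, 37.3 and 34.4 in the labelled libraries, with means of 30.0 ± 5.30 (SD, n = 2) and 38.7 ± 5.23 (SD, n = 3). Labelled library 3 was close to the control pair. Differences between libraries in rRNA removal or poly(A) enrichment, both named in the sample records, were not tested.

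Among the members, only tRNA genes passed the test, on small counts. These genes are 60 to 75 bases long, shorter than the 150 bp reads named in the sample records, so a read counted on a tRNA gene need not come from a mature tRNA. Of 22 tRNA genes, 11 passed the filter, 7 of them in all 6 libraries and 2 through the labelled libraries alone. The 11 that did not pass had at most 19 counts in any library. Summed over all 22, tRNA counts were 1659, 1320 and 1316 in the controls and 2664, 2484 and 1858 in the labelled libraries. Per 1000 mitochondrial mRNA counts this was 1.11, 1.15 and 1.08 against 2.59, 2.33 and 1.23. Labelled libraries 1 and 2 thus stood well above the controls and labelled library 3 just above them. This sum rests largely on few genes, since AY172581.2, AY172581.18 and AY172581.10 had the most counts in every library. They had 981, 385 and 89 counts in control replicate 1 and 1152, 839 and 351 in labelled library 1.

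The test called 2 tRNA genes, both higher in the labelled libraries, where 8.20% of all tested genes were called higher and 9.93% lower. The AY172581.16 gene (ENSRNOG00000032320), at 9800 to 9867 between Mt-nd3 and Mt-nd4l on the + strand, had 17, 9 and 13 counts in the controls and 44, 45 and 38 in the labelled libraries. In normalized CPM this was 0.873, 0.579 and 0.794 against 2.59, 2.72 and 2.17, with no overlap and little spread within either group. This gene was over the filter level in 2 control and 3 labelled libraries, so the labelled libraries helped it pass. The log2 fold change was 1.72 ± 0.28 (adjusted p = 0.0128, edgeR's quasi-likelihood test). The AY172581.17 gene (ENSRNOG00000032578), at 11606 to 11665 in the run of tRNA genes between Mt-nd4 and Mt-nd5, had 23, 16 and 18 counts against 71, 71 and 39. Its normalized CPM of 1.18, 1.03 and 1.10 compared with 4.17, 4.28 and 2.22, labelled library 3 being the lowest of its group (log2 fold change 1.68 ± 0.32, adjusted p = 0.0209, edgeR's quasi-likelihood test). Both calls rested on counting the near-identical control libraries separately. With that pair summed, the log2 fold changes were 1.66 and 1.65, and the adjusted p of edgeR's quasi-likelihood test was 0.0616 for AY172581.16 and 0.0902 for AY172581.17, and an exact permutation test over 5 samples gave its smallest possible p, 0.1, for each. Without control replicate 2 the adjusted p values were 0.0666 and 0.0962, and without control replicate 3 they were 0.0664 and 0.0913 (edgeR's quasi-likelihood test). AY172581.17 also missed the threshold without labelled library 2, at 0.0608.

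**Figure D5:**
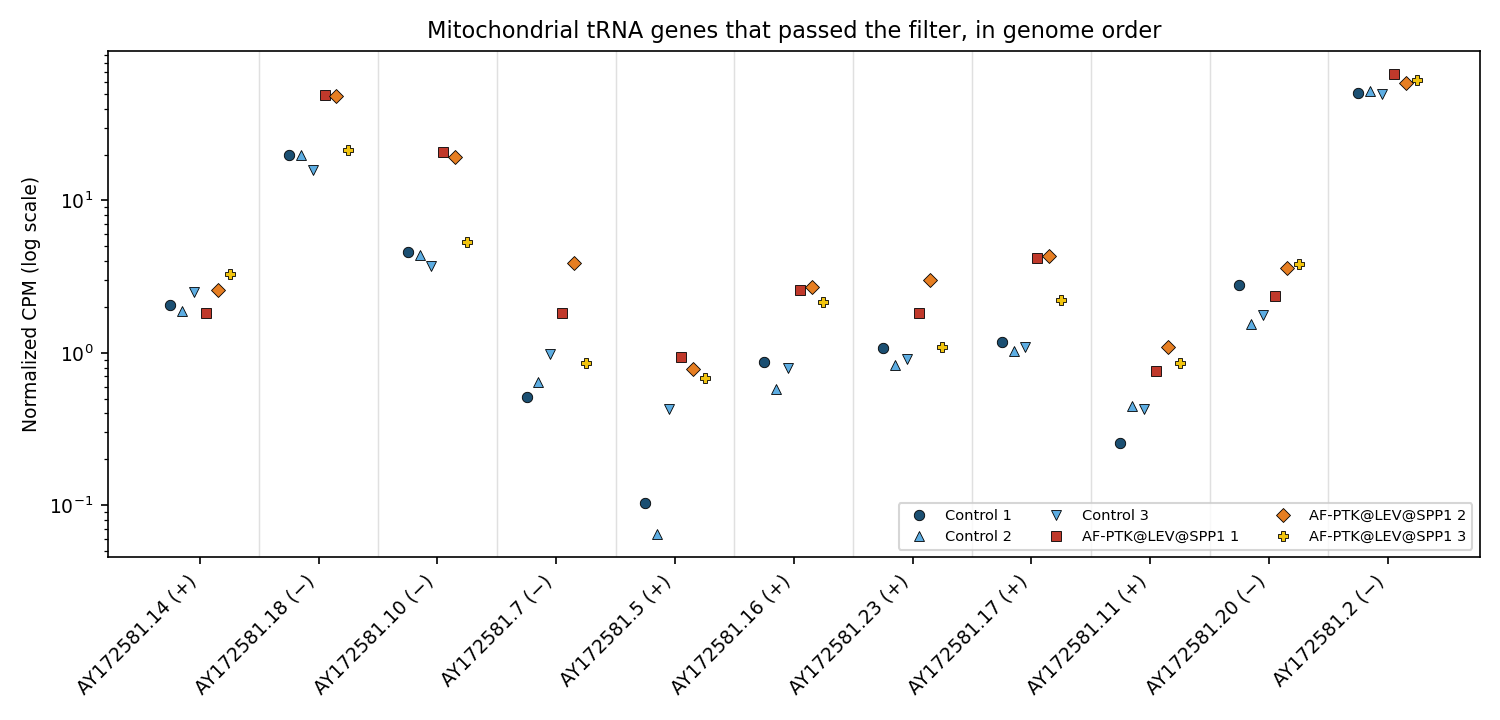
Normalized CPM (log axis) of the 11 tRNA genes that passed the filter, in genome order with the coding strand in brackets, with a point for each library. Labelled libraries 1 and 2 lie above the controls at AY172581.18, AY172581.10 and AY172581.7, where labelled library 3 stays near them.

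Around these 2 genes lie 3 other tested tRNA genes of the + strand, between Mt-co3 and Mt-nd5. AY172581.5, between Mt-co3 and Mt-nd3, had 2, 1 and 7 counts against 16, 13 and 12, and passed the filter through the labelled libraries alone. AY172581.11, which directly precedes Mt-nd5, did so too, with 5, 7 and 7 counts against 13, 18 and 15. These genes had to differ in that direction to pass, so their separation carries no weight of its own. AY172581.23, directly after Mt-nd4, had 21, 13 and 15 counts against 31, 50 and 19. Control replicate 1 and labelled library 3 were both at 1.08 normalized CPM, the labelled library ahead by less than the rounding, and relative to library totals alone their order turned (1.17 against 1.06 CPM). The adjusted p values of AY172581.5, AY172581.11 and AY172581.23 by edgeR's quasi-likelihood test were 0.0764, 0.0604 and 0.128. The + strand gene AY172581.14, before Mt-nd1, was at 2.05, 1.87 and 2.50 normalized CPM against 1.82, 2.59 and 3.31, and its groups overlapped.

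On the - strand, 3 neighbouring tested tRNA genes between Mt-nd2 and Mt-co1 shared a pattern. As the use of strand in counting was not stated, reads of the + strand over them cannot be told apart from their own. AY172581.22, a - strand gene at 5010 to 5078 in the same stretch, had 0 to 3 counts in a library and was not tested. AY172581.18, at 5081 to 5152, was at 19.8, 19.8 and 15.8 normalized CPM in the controls and at 49.3, 48.1 and 21.5 in the labelled libraries. AY172581.10, at 5185 to 5252, was at 4.57, 4.37 and 3.72 against 20.6, 19.1 and 5.30. AY172581.7, at 5256 to 5321, was at 0.514, 0.643 and 0.977 against 1.82, 3.86 and 0.855. Labelled libraries 1 and 2 were high in all 3 genes, and labelled library 3 was near the controls. The log2 fold changes were 1.10 ± 0.32, 1.83 ± 0.50 and 1.61 ± 0.61, with adjusted p values of 0.0617, 0.0523 and 0.111 by edgeR's quasi-likelihood test. That of AY172581.7 came down to 0.91 without labelled library 2. Across the other fits the adjusted p ran from 0.0111 to 0.194 for AY172581.18 and from 0.00317 to 0.170 for AY172581.10. By edgeR's quasi-likelihood test it was 0.0181 and 0.0127 without labelled library 3, 0.125 and 0.103 without labelled library 1, 0.148 and 0.124 without labelled library 2, and 0.174 and 0.160 with the control pair summed. Elsewhere on this strand, AY172581.20, between Mt-nd6 and Mt-cyb, overlapped at 2.77, 1.54 and 1.77 against 2.35, 3.62 and 3.82 normalized CPM. AY172581.2, the most counted tRNA gene, lies last on the chromosome as the table gives it (15348 to 15415). Its 50.4, 52.4 and 49.8 normalized CPM in the controls and 67.7, 58.9 and 61.7 in the labelled libraries did not overlap, for a small log2 fold change of 0.30 ± 0.083 (adjusted p = 0.0525, edgeR's quasi-likelihood test).

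Leaving aside AY172581.5 and AY172581.11, which passed the filter through the labelled libraries alone, the groups were apart for 6 of 9 tested tRNA genes, all higher in the labelled libraries, and 21.6% of all tested genes were higher without overlap. Relative to library totals alone it was 4 of the 9, since AY172581.18 and AY172581.23 then overlapped. At an unadjusted p under 0.05 by edgeR's quasi-likelihood test there were 7 of the 9, beside 18.9% of all tested genes in that direction. DESeq2 called 5 after adjustment, where it called 12.6% of all genes higher, and limma-voom called 2, where it called 7.53%. Of these 9, AY172581.16 and AY172581.7 were over the filter level in 2 control and 3 labelled libraries, so the labelled libraries helped them pass. AY172581.16 is among the genes that were apart and called. Of the untested tRNA genes, AY172581.13, the first gene of the chromosome, had 0 counts in every library, which allows up to 0.167 to 0.193 CPM. AY172581.1, between Mt-co2 and Mt-atp8, had 4, 4 and 6 counts against 19, 6 and 16. The other untested genes had at most 10 counts in a library. Positions follow the table, which names no genome build, and it gives the tRNA and rRNA genes no name beyond the AY172581 series, so the amino acid of each tRNA is not stated here.

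The nuclear genes that transcribe and copy the mitochondrial genome held 1 call among 18 tested, or 5.56%, beside 18.1% of all tested genes. By edgeR's quasi-likelihood test this was Mterf2, a member of the mitochondrial transcription termination factor family, which was higher by 0.59 on the log2 scale (adjusted p = 0.0482). The polymerase Polrmt had a log2 fold change of 0.10 ± 0.20 and its cofactor Tfb2m -0.042 ± 0.091. Tfam, which packages the genome and starts its transcription, was at 27.3, 21.6 and 24.1 normalized CPM in the controls and 28.5, 29.1 and 29.3 in the labelled libraries, a difference that missed the threshold (adjusted p = 0.144, edgeR's quasi-likelihood test). The replication polymerase Polg and the helicase Twnk had log2 fold changes of -0.010 ± 0.11 and -0.22 ± 0.14.

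Among 37 tested genes for mitochondrial RNA processing and stability, 3 were called lower, or 8.11%, beside 9.93% of all tested genes, and none higher, beside 8.20%. Rexo2, an exonuclease that clears short RNA in mitochondria, was at 68.9, 88.6 and 90.8 normalized CPM in the controls and 44.8, 37.0 and 45.8 in the labelled libraries, and fell by 0.96 on the log2 scale (adjusted p = 0.0106, edgeR's quasi-likelihood test). Fastkd1 (-0.70 ± 0.17) and Grsf1 (-0.37 ± 0.085), both RNA-binding proteins of the organelle, were also called. Lrpprc and Slirp, which together hold mitochondrial mRNAs stable, had log2 fold changes of 0.014 ± 0.086 and -0.34 ± 0.13, the latter with an adjusted p of 0.117 by edgeR's quasi-likelihood test. Of 14 tested regulators of mitochondrial biogenesis, Pprc1, a coactivator related to Ppargc1a, was the only call, at -0.61 ± 0.13, or 7.14% of this list beside 18.1% of all tested genes. Ppargc1a itself was barely expressed at 0.611 to 1.21 normalized CPM, and Nrf1 had a log2 fold change of 0.11 ± 0.083.

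The nuclear-encoded partners of the mitochondrial subunits showed few calls in either direction. Of 79 tested nuclear genes of the respiratory chain and ATP synthase, 4 were called, or 5.06%, against 18.1% of all tested genes, and their median log2 fold change was -0.059. Higher were Ndufb10, an accessory subunit of complex I (0.38 ± 0.097), and Ndufa4l2, a paralogue of a complex IV subunit known as a hypoxia-induced gene (1.31 ± 0.32). Ndufa4l2 was at 165, 201 and 203 normalized CPM in the controls and 677, 277 and 459 in the labelled libraries. Lower were Uqcr10 of complex III (-0.53 ± 0.11) and Atp5mk of ATP synthase (-0.43 ± 0.095). Of 75 tested proteins of the mitochondrial ribosome, 3 were called, where 18.1% of all tested genes were, all lower: Mrpl12 (-0.61 ± 0.15), Mrpl20 (-0.47 ± 0.12) and Chchd1 (-0.37 ± 0.092). The median of this list was -0.12, beside 0.046 over all tested genes.

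Genes of mitophagy, the removal of damaged mitochondria, were called in 3 of 16 tested, a share of 18.8% that is near the 18.1% of all tested genes. All 3 were higher, beside 8.20% of all tested genes in that direction, and they are named here after their values were seen. The receptor Bnip3l was at 167, 176 and 179 normalized CPM in the controls and 303, 294 and 303 in the labelled libraries (log2 fold change 0.79 ± 0.085). The kinase Pink1 was at 73.8, 51.0 and 52.8 against 96.0, 125 and 104, and Ulk1, a kinase that starts autophagy, at 27.1, 33.8 and 31.7 against 60.4, 46.3 and 44.2. Bnip3l also serves the clearance of mitochondria from maturing red cells, whose markers summed to 2510, 20642 and 14133 normalized CPM in labelled libraries 1, 2 and 3 and to 2397 to 3278 in the controls, and their part in its difference was not tested. Bnip3l was the only one of these nuclear calls to remain with the near-identical controls summed (adjusted p = 0.0410, edgeR's quasi-likelihood test), where 1.13% of all tested genes were called higher. The lists for transcription, RNA processing, biogenesis, the respiratory chain and the mitochondrial ribosome then held 0 calls, as they did without control replicate 2 and without control replicate 3.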

How the data were processed

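The authors deposited counts, a whole number of reads per rat Ensembl gene and library, without normalization. The submitters' processing notes name FastQC, Trimmomatic, HISAT2, featureCounts and DESeq2, with no versions and with the mouse build mm10, although the gene identifiers are those of rat. The use of strand and the handling of reads shared by genes were not given in the sources used here. The sample records mention mouse tissue, sorted macrophages and a NovaSeq sequencer, and the paper whole rat discs and a HiSeq. Columns named IVD were taken as the control group.

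The 6 libraries (15560728 to 17942989 counts) entered a fit by edgeR (version 4.0.16, R version 4.3.3) with TMM normalization. The filter was filterByExpr at its minimum count, 10, and the test was the quasi-likelihood test, two-sided, with Benjamini-Hochberg adjustment over 15042 genes. Normalized CPM are counts scaled to a common, TMM-adjusted library size. Means, SD and exact permutation tests used 5 distinct samples. Exact tests of a level were run on log2(normalized CPM + 0.1). Sources name separate animals per group. The fit took all 6 libraries as separate samples, so its p-values rest in part on the small spread between the near-identical controls, and an alternative summed that pair. The fit was tested on simulated data, of which no result is given here. The members follow from position alone, but this part and the gene lists were chosen with earlier results of these data known.

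All mitochondrial mRNAs and rRNAs and the tRNA genes past the filter were named. Beyond them, 9 nuclear genes were named whatever they did, with, per list, up to 3 calls of the largest change in each direction. Alternatives were DESeq2 1.42.0, limma-voom 3.58.1, other scalings and filters, robust estimation, a block for the replicate number, the control pair summed and each library left out. Marker lists covered disc cartilage, annulus and tendon, nucleus pulposus, skeletal muscle, adipocytes, macrophages, neutrophils, red cells, endothelium, osteoblasts and osteocytes, and osteoclasts. No sequence of the members was printed.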

Additional observations from a re-analysis of the deposited data

How the results depend on the processing

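The count of 0 mitochondrial mRNAs past the test was the same in all 17 alternative fits and with a fold threshold, and the smallest unadjusted p values fell under 0.05 for Mt-nd6 without control replicate 1 and for Mt-co3 and Mt-atp8 without labelled library 3. The calls among rRNA and tRNA genes, 2 as reported, numbered 5 with DESeq2, 4 with upper quartile normalization, 0 with the control pair summed and 0 to 4 with a library left out. At a minimum count of 50 there were also 2, but these were AY172581.10 and AY172581.2, and neither AY172581.16 nor AY172581.17 was tested. Both calls were lost without control replicate 2 or 3, AY172581.17 also without labelled library 2, and AY172581.10 and AY172581.18 were added without labelled library 3. Same-numbered deviations were not positively correlated (-0.33, -0.28 and -0.076). With control replicates 2 and 3 near-identical, these values cannot decide whether the replicate numbers pair the samples. With the number as a replicate block, 0 rRNA and tRNA genes, 0 respiratory chain genes and 0 mitochondrial ribosome genes were called. There were also 0 calls among genes for expression of the mitochondrial genome, and all calls fell from 2727 to 741. With the control pair summed these lists also held 0 calls, and all calls fell to 575. For the respiratory chain list (4 calls) library totals gave 1 and leaving out a library 0 to 4, with 0 also without labelled library 3. For the ribosome list (3 calls) DESeq2 gave 6, upper quartile normalization 1, library totals 0 and leaving out a library 0 to 2, with 0 also without labelled library 2. For the expression list (5 calls) library totals gave 3 and leaving out a library 0 to 7. The log2 fold change of Mt-nd3 became 0.019 with upper quartile normalization, 0.015 with library totals and 0.0045 at a minimum count of 50, and ran from -0.20 to 0.081 with a library left out. Likewise Mt-nd1 ran from -0.045 to 0.29, Mt-nd4l from -0.043 to 0.23 and Mt-nd4 from -0.059 to 0.24, the lowest value being without labelled library 3. The share difference ran from -1.58 to 0.10 percentage points for Mt-co1, -0.39 to 0.0063 for Mt-co2 and -0.016 to 0.0039 for Mt-atp8. The difference in the mitochondrial share of all counts ran from -1.15 to 0.20 points. Scaling to the mitochondrial mRNA counts moved the median log2 fold change of all tested genes to 0.17. The cause of these changes was not tested, beyond fewer samples in the fits that leave out or sum libraries. Most tRNA genes had fewer than 100 counts in each library, fewer than any mRNA, and whether depth limited their calls was not tested.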
